A study of Rattus norvegicus with 6 samples.

Results

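The subunits of the phagocyte NADPH oxidase were followed in rat brain after stroke. Members were 5 listed genes: Cybb, Cyba, Ncf1, Ncf4 and Rac2. Each was taken from probe sets of the deposited value table annotated with exactly 1 symbol, using the probe set with the highest mean. All 5 were found, each on 1 probe set, among 14497 genes with such a probe set, and all 5 were among the 10947 genes tested.

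The tissue came from male Sprague-Dawley rats, either naive or after a cerebral infarct, for which a tungsten hook had lifted the artery and stopped its flow for a time (the middle cerebral artery). The stroke groups were aged rats (19 to 20 months) and young rats (3 to 4 months), sampled around the infarct at 3 d and at 14 d. The naive groups were aged rats (18 to 20 months) and young rats (3 to 5 months) without a stroke, whose tissue is labelled healthy brain with no region named. Each of the 6 groups was 1 Affymetrix whole-transcript array of 1 RNA pool, from 23 aged or 19 young stroke rats per time point and from 15 naive rats per age. There were no replicates within a group, so animals cannot be told apart, and precision is limited by the number of arrays. No sham-operated group is among these samples, so surgery and infarct cannot be told apart.

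The phagocyte oxidase moves electrons from NADPH across a membrane to oxygen and so makes superoxide, the first of the reactive oxygen species that phagocytes use against microbes. Its core is a pair of membrane proteins, and it works only once a set of cytosolic proteins and a Rac GTPase have joined them. In brain the enzyme is known from microglia and from infiltrating phagocytes. Inherited loss of its subunits in humans causes chronic granulomatous disease.

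Upstream sequences are shown because the members moved together, so that a reader can see what lies before each gene. The RefSeq promoter table of build GRCr8 held 3 of the 5 members (Cybb, Cyba and Ncf1), and Ncf4 and Rac2 are named only. The stretches are the 180 bases just before the annotated gene start, 5′ to 3′ on the gene's strand. They are chrX:16065066-16065245 (minus strand) for Cybb, chr19:67404215-67404394 (minus strand) for Cyba and chr12:28121636-28121815 (plus strand) for Ncf1. Capitals mark matches to any of 6 motifs, listed after the sequences.
Cybb: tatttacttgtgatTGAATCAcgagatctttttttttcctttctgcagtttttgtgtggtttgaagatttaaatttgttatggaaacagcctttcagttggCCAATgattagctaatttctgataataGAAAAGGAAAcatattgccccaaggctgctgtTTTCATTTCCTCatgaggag
Cyba: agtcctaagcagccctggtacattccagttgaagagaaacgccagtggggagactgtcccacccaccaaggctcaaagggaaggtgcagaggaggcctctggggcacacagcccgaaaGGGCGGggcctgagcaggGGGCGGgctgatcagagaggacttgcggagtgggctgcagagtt
Ncf1: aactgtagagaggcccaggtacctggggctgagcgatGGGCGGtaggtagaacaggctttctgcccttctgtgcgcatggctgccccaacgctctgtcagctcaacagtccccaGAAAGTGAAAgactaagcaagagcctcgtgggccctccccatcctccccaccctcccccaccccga

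The motifs were searched on both strands in the 250 bases before the start listed in the table, for each of its 33469 promoters. They were chosen after these sequences had been looked at, and a match is a description of letters. The composite of an ETS and an IRF site, GGAA and GAAA with 2 bases between them, occurred before Cybb at positions -20 to -11 from the start, read on the opposite strand, and in 2.48% of all promoters. It overlapped a core PU.1 motif, GAGGAA, at -14 to -9, which 23.3% of promoters held. PU.1 is the product of Spi1, a transcription factor of myeloid cells. The interferon-response type motif, GAAA and GAAA with 2 bases between them, occurred before Cybb (-52 to -43) and before Ncf1 (-135 to -126 from its listed start, which lies downstream of the annotated gene start), against 3.41% of all promoters. The AP-1 motif TGANTCA (6.34% of promoters) was found only before Cybb among these 3. So was CCAAT (34% of promoters), with 1 match shown and 1 further upstream. Cyba held none of these and had GGGCGG, the GC box of Sp1, at -62 to -57 and at -44 to -39. Ncf1 held GGGCGG at -212 to -207, and 30.5% of promoters held it.

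Values are the deposited ones, read as log2, so that a difference of 1 is a 2-fold change. That base was taken from the span of the values, since the labels do not give it. Levels of different genes are not compared, since each probe set has its own response. Array medians lay between 7.09 and 7.15, and correlations between pairs of arrays across all probe sets lay between 0.962 and 0.995. The aged naive array had a higher summed level of 7 tested thalamic markers than the young one, 11.48 and 10.75 on the log2 scale, so results are also given without it where they change. Bulk tissue was measured throughout, so a change in the number of cells that express a gene and a change in RNA per cell cannot be told apart.

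The first question was how the subunits differ between tissue around the infarct and naive tissue. All 5 rose at 3 d and all 5 rose at 14 d, in a limma fit of time and age over all 6 arrays with Benjamini-Hochberg adjustment at 0.05 over all genes. In the same fit 14.4% of genes were higher and 7.87% lower at 3 d, and 13.6% were higher and 11.4% lower at 14 d. The median change of the 5 members was 2.02 at 3 d and 2.10 at 14 d on the log2 scale, against -0.03 and -0.06 for all genes tested. Stroke and naive arrays did not overlap for any member at either time. At 3 d 33.8% of all genes had both stroke arrays above both naive arrays, and at 14 d 28.3% did. The 2 time points share the naive arrays, so their changes are not independent of each other. Errors are standard errors from the fit, with 2 arrays per time point.

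**Figure D1:**
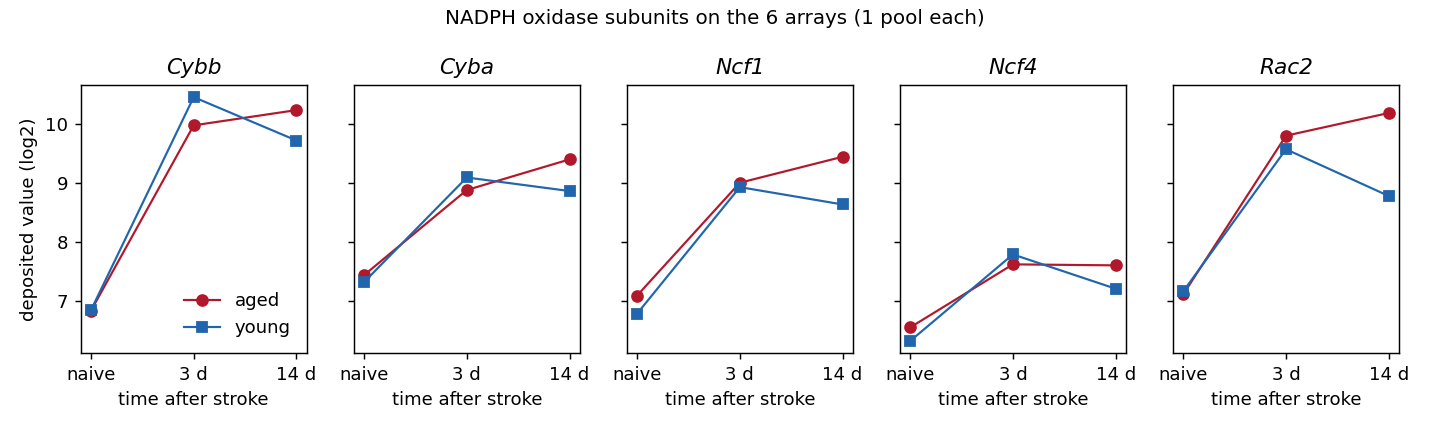
Deposited log2 values (vertical axis) of the 5 subunits on each of the 6 arrays, by time after stroke, with aged pools as circles and young pools as squares. Every stroke array lies above both naive arrays of the same gene, and at 14 d every aged value lies above the young one.

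Of the membrane pair, Cybb encodes gp91phox (also called Nox2), the catalytic subunit that carries the electrons. Its log2 values in aged rats were 6.84 in naive tissue, 9.97 at 3 d and 10.23 at 14 d. In young rats they were 6.85 in naive tissue, 10.45 at 3 d and 9.72 at 14 d. The naive arrays of the 2 ages were thus nearly equal, and all 4 stroke arrays were far above them, highest in young rats at 3 d. The rise was 3.37 ± 0.22 at 3 d, a 10.3-fold change, with adjusted p = 0.000111 by limma. At 14 d it was 3.13 ± 0.22, or 8.76-fold, with limma's adjusted p = 0.000134. These were the 19th and the 14th largest rises among the 10947 genes.

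Cyba encodes p22phox, the partner that stabilises gp91phox in the membrane and gives the cytosolic proteins a docking site. Aged rats had 7.44 in naive tissue, 8.88 at 3 d and 9.40 at 14 d. Young rats had 7.32 in naive tissue, 9.09 at 3 d and 8.86 at 14 d. The aged 14 d pool was the highest and the young naive pool the lowest. The rise was 1.60 ± 0.18 at 3 d (3.04-fold, limma's adjusted p = 0.000904) and 1.75 ± 0.18 at 14 d (3.36-fold, adjusted p = 0.000636). Both members of the membrane pair therefore rose, with changes of 3.37 and 1.60 at 3 d. The 95% intervals of those changes, 2.87 to 3.87 for Cybb and 1.19 to 2.02 for Cyba, did not overlap. The difference between the genes was not tested, and probe sets can compress folds to different degrees.

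Of the cytosolic subunits, Ncf1 encodes p47phox, the organiser whose phosphorylation starts the assembly. In aged rats its values were 7.09 in naive tissue, 9.001 at 3 d and 9.44 at 14 d, and in young rats 6.79, 8.93 and 8.63 at the same stages. Aged values were above young ones at each stage, by 0.31, 0.07 and 0.81. The rise was 2.02 ± 0.18 at 3 d (4.06-fold, limma's adjusted p = 0.000329) and 2.10 ± 0.18 at 14 d (4.28-fold, adjusted p = 0.000284).

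Ncf4 encodes p40phox, a cytosolic subunit that binds a phosphoinositide of phagosome membranes. In aged rats it had 6.56 in naive tissue, 7.62 at 3 d and 7.61 at 14 d, and in young rats 6.33, 7.79 and 7.21. It showed the smallest changes of the 5 members, 1.27 ± 0.16 at 3 d (2.40-fold, limma's adjusted p = 0.00147) and 0.97 ± 0.16 at 14 d (1.95-fold, adjusted p = 0.00479). The young naive value lay below the 40th percentile of its array (6.55) and the aged naive value just reached that of its own (6.56), so the size of the rise is uncertain. The other 4 members reached the 40th percentile on all 6 arrays. At 14 d the call of Ncf4 ended without the aged naive array (1.025) and without the young naive array (0.91). Each of these fits leaves 1 naive array and so no spread in naive tissue.

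Rac2 encodes the Rac GTPase of blood-forming cells, which in its GTP-bound state switches the assembled oxidase on. Aged rats had 7.12 in naive tissue, 9.80 at 3 d and 10.18 at 14 d. Young rats had 7.16 in naive tissue, 9.57 at 3 d and 8.78 at 14 d. The naive pools were close together, and at 14 d the ages lay farther apart than for any other member. The rise was 2.54 ± 0.30 at 3 d (5.82-fold, limma's adjusted p = 0.00122) and 2.34 ± 0.30 at 14 d (5.06-fold, adjusted p = 0.00181). The 14 d value was 1.68 without the aged 14 d array and 3.00 without the young 14 d array (limma, adjusted p = 2.42e-05 and 1.82e-07).

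**Figure D2:**
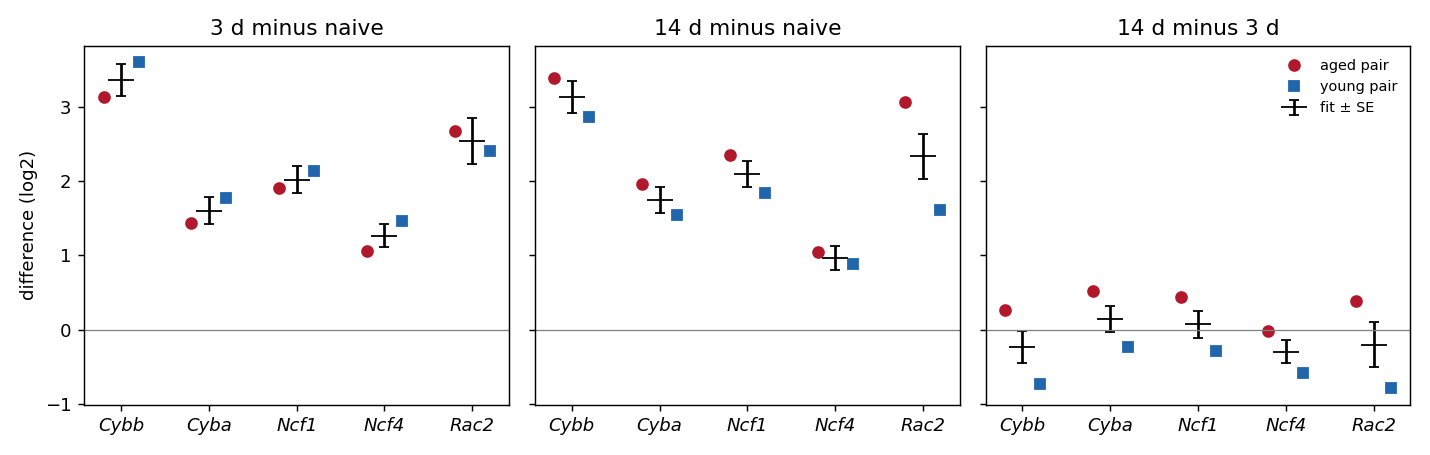
Log2 differences (vertical axis) of each subunit for 3 d minus naive, 14 d minus naive and 14 d minus 3 d, with the aged pair of arrays as circles, the young pair as squares, and the limma estimate with its standard error in black. All pairs lie above 0 against naive tissue, and between the stroke stages most aged pairs lie above 0 and all young pairs below it.

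Within single pairs of arrays, which allow no test, all 5 members were higher by at least 1 at 3 d in aged and in young rats, as 5.45% and 6.94% of all genes were. At 14 d all 5 were in aged rats and 4 in young rats, against 7.49% and 4.88% of all genes. The exception was Ncf4 in young rats, at 0.88. In aged rats the changes at 3 d ran from 1.07 (Ncf4) to 3.13 (Cybb), and in young rats from 1.46 to 3.60 for the same genes.

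The next question was whether levels differed between 14 d and 3 d. With limma 0 of 5 members passed, whereas 1.34% of genes were higher and 1.82% lower. At an unadjusted p under 0.05 were 0 of 5 members and 11.7% of all genes. Cybb changed by -0.24 (95% interval -0.74 to 0.26), Rac2 by -0.20 (-0.91 to 0.51) and Ncf4 by -0.30 (-0.66 to 0.07). Cyba changed by 0.14 (-0.27 to 0.56) and Ncf1 by 0.07 (-0.34 to 0.49). The adjusted p-values of limma ran from 0.557 to 0.941. The intervals thus include no change as well as changes of up to -0.91 for Rac2.

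The single pairs pointed different ways in the 2 ages. In aged rats 14 d was above 3 d by 0.52 for Cyba, 0.44 for Ncf1, 0.38 for Rac2 and 0.26 for Cybb, and Ncf4 was at -0.02. In young rats all 5 were below, by -0.79 for Rac2, -0.73 for Cybb, -0.58 for Ncf4, -0.29 for Ncf1 and -0.23 for Cyba. So 4 of 5 members were lower in young and higher in aged rats at the later time, a combination shown by 29.5% of all genes. Without the aged 14 d array, Rac2 was lower at 14 d, at -0.86. Without the young 14 d array its change had the opposite sign, at 0.45. With 1 array left at 14 d, these fits hold no spread at 14 d, so only sizes are given. The sign of 3 other members also followed the array left out. Without the aged and without the young 14 d array, Cybb was at -0.62 and 0.14, Cyba at -0.15 and 0.44, and Ncf1 at -0.24 and 0.38.

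The comparison of ages over all stages found no member past the threshold. Aged minus young was 0.53 ± 0.25 for Rac2, 0.40 ± 0.15 for Ncf1, 0.15 ± 0.13 for Ncf4, 0.15 ± 0.15 for Cyba and 0.01 ± 0.18 for Cybb. Limma's adjusted p was 0.631 or more for each, and 1 of 5 (Ncf1) had an unadjusted p under 0.05. Over all genes 0% were called in either direction, and 7.78% had an unadjusted p under 0.05.

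Stage by stage, each with 1 array per age, the members were near one another in the naive arrays, with aged minus young between -0.05 (Rac2) and 0.31 (Ncf1). At 3 d the differences ran from -0.48 (Cybb) to 0.23 (Rac2), with 2 of 5 higher in aged rats. On these 3 d arrays 37.5% of all genes were higher in aged rats, with a median of -0.06. At 14 d all 5 were higher in aged rats, by 1.40 for Rac2, 0.81 for Ncf1, 0.54 for Cyba, 0.51 for Cybb and 0.40 for Ncf4. On these 14 d arrays 52.1% of all genes were higher in aged rats, with a median of 0.02, and 1.04% were higher by at least 1, as Rac2 alone was among the members.

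**Figure D3:**
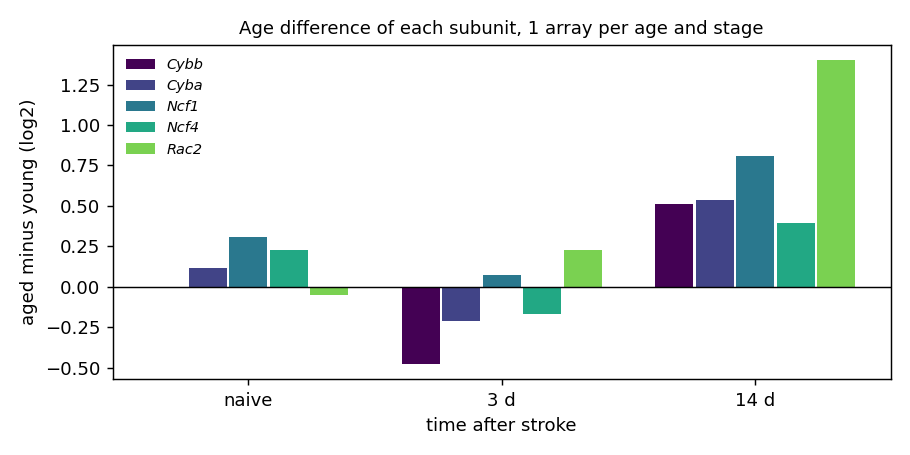
Aged minus young log2 difference (vertical axis) of each subunit in naive tissue, at 3 d and at 14 d, with 1 array per age and stage and so no error bars. All 5 bars are above 0 at 14 d, led by Rac2 at 1.40, while those at 3 d lie on both sides of 0.

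Whether the age difference at 14 d departs from that at the other stages was tested with a term for age at 14 d. This fit takes the age differences in naive tissue and at 3 d as equal and leaves 1 residual degree of freedom. Rac2 passed, at 1.31 ± 0.22 with limma's adjusted p = 0.0285, where 0.375% of genes were called in that direction and 0.0183% in the other. The call ended with quantile normalization (adjusted p = 0.137), with array medians centred (0.0886) and with no filter on low values (0.0637), while the size stayed between 1.25 and 1.33. The other 4 members did not pass, though 3 of them had an unadjusted p under 0.05, as 13.4% of all genes did. Cybb was at 0.76 (limma's adjusted p = 0.184), Ncf1 at 0.62 (0.235), Cyba at 0.58 (0.277) and Ncf4 at 0.36 (0.534). The same test at 3 d called 0 of 5 members with limma, whose values ran from -0.73 (Cybb) to -0.45 (Rac2). There 1 of 5, Cybb, had an unadjusted p under 0.05, as 2.93% of all genes did. In that fit 0.00913% of genes were called lower and 0% higher.

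Some markers of immune cells were also higher in aged rats at 14 d, with 1 array per age. The summed log2 level of 13 monocyte and macrophage markers was 14.05 on the aged and 13.31 on the young 14 d array. That of 12 microglia markers was 14.22 and 13.80, that of 5 neutrophil markers 10.45 and 9.75, and that of 6 lymphocyte markers 11.53 and 10.87. A sum follows its brightest genes, here Csf3r and Mmp8 for neutrophils and Cd4 for lymphocytes. Others were lower on the aged 14 d array, Elane at 5.98 against 6.55 in young rats, Prtn3 at 6.36 against 6.76, Lck at 6.19 against 6.38 and Cd79b at 6.72 against 6.90. In the fit that called Rac2, 1 of 5 neutrophil markers passed, the collagenase gene Mmp8 (1.60, limma's adjusted p = 0.0121). So did 2 of 6 lymphocyte markers, Cd8b (1.58, limma's adjusted p = 0.0285) and Nkg7 (1.17, 0.0442). Nkg7 reached the 40th percentile on the aged 14 d array alone (7.49), so it was tested only through the array where it was high. Its call is therefore no support. With limma 0 of 12 microglia and 0 of 13 monocyte and macrophage markers passed. At an unadjusted p under 0.05 were 2 and 7 of them, against 13.4% of all genes. Their medians were 0.22 and 0.77, against 0.06 for all genes. The part of these cells in the age difference of Rac2 was not tested.

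Markers of several cell types and regions moved with the rise after stroke. Of 12 tested microglia markers 12 rose at 3 d and 12 at 14 d, with medians of 1.39 and 1.62. Of 13 monocyte and macrophage markers 11 rose at each time, with medians of 2.30 and 1.67. Among those that rose, Fcrl2 of the microglia list lay below the 40th percentile on both naive arrays. So did Ccr2, Cd14, Cd163, Cd44 and Plac8 of the monocyte and macrophage list. These genes were tested only through stroke arrays, where they were high, so their rises are no support. The summed levels at 3 d were 13.88 (aged) and 13.76 (young) for microglia, against 12.43 and 12.13 in naive tissue. For monocytes and macrophages they were 13.95 and 14.02 at 3 d, against 11.10 and 10.93 in naive tissue. Of 15 neutrophil markers only 5 were tested, and Mpo, S100a8, S100a9, Ltf and Camp stayed below the 40th percentile on all 6 arrays. Absent RNA and a probe set that does not respond cannot be told apart there. Mmp8 and Csf3r rose at both times. Mmp8 lay below the 40th percentile on both naive arrays, at 5.37 (aged) and 5.43 (young). It was tested only through stroke arrays, so its rise is no support. Mmp9 rose at 3 d, by 0.95 ± 0.21, was at -0.38 at 14 d without passing, and was lower at 14 d than at 3 d by -1.33 (limma, adjusted p = 0.0177). Elane and Prtn3 did not pass, at -0.32 and -0.28 at 3 d and at -0.32 and -0.21 at 14 d, and the list's median was 0.95 at 3 d and -0.21 at 14 d. Of 14 lymphocyte markers 6 were tested, while Cd3e, Cd3d, Cd3g, Cd2, Ms4a1 and Klrk1 were below that percentile on every array. Cd8a, Cd8b and Cd4 rose at 3 d, and Cd8b and Cd4 at 14 d. Cd8a and Cd8b lay below that percentile on both naive arrays and were tested only through stroke arrays, so their rises are no support. Lck, Cd79b and Nkg7 did not pass, at 0.03, -0.24 and -0.37 at 3 d and at -0.18, -0.14 and 0.76 at 14 d. Whether lymphocytes were present was not tested. Of 10 endothelial markers 6 rose at 3 d and 5 at 14 d, with medians of 0.73 and 0.39. Neuron markers fell, 5 of 12 at 3 d and 9 of 12 at 14 d, with medians of -0.44 and -0.57. Of 7 tested thalamic markers 4 fell at both times, Slc17a6 by 2.03 and 1.83, Calb2 by 1.58 and 1.62, Shox2 by 1.46 and 1.54 and Ntng1 by 1.19 and 1.22. Of 7 tested choroid plexus markers 5 fell at 3 d (median -0.99), while at 14 d 1 rose and none fell (median 0.10). Regional markers thus differed between the naive tissue, whose region is not named, and the tissue around the infarct. The part of each cell type and region in the rise of the oxidase subunits was not tested.

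**Figure D4:**
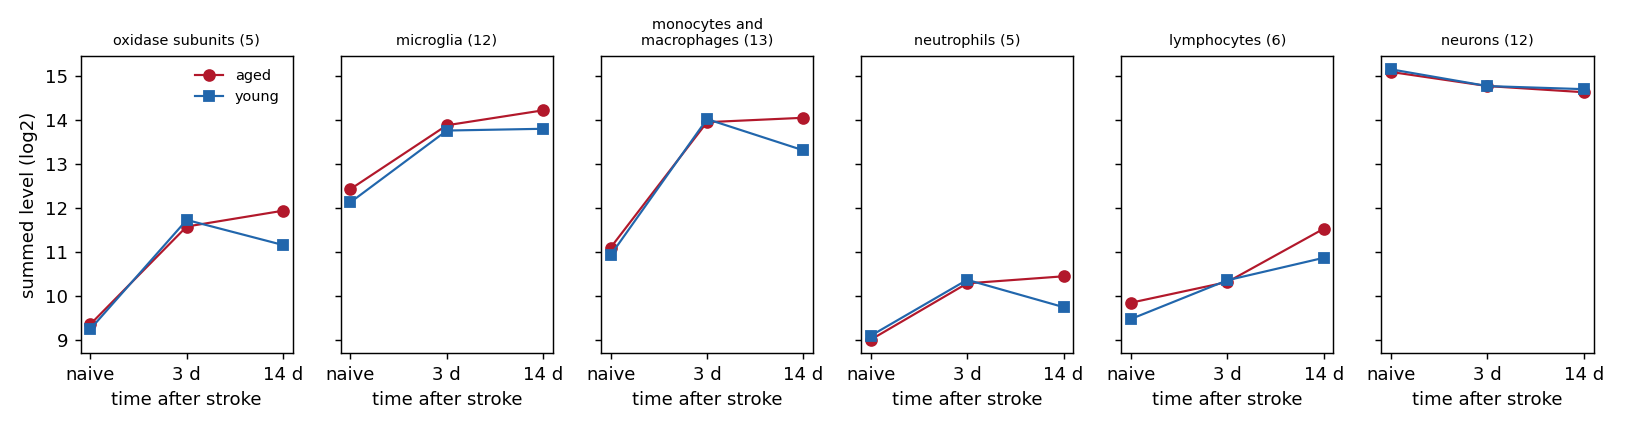
Summed level of the tested genes of each list (log2 of the sum of linear values, vertical axis) on each array, by time after stroke, with aged pools as circles and young pools as squares, and the number of genes in brackets. The oxidase subunits, microglia, monocyte and macrophage, neutrophil and lymphocyte lists are all higher on the stroke arrays than on the naive arrays. Each of these is higher in aged than in young rats at 14 d. The lymphocyte sum follows its brightest gene, Cd4.

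The rest of the NADPH oxidase family was little seen on these arrays. Of 13 other genes listed, 3 were tested and 7 lay below the 40th percentile on every array. Duoxa2 and the proton channel gene Hvcn1 had no probe set with 1 symbol and were not analysed here. Cybc1, which encodes a chaperone of the gp91phox and p22phox pair, rose by 0.72 ± 0.17 at 3 d and by 0.98 ± 0.17 at 14 d (limma, adjusted p = 0.0222 and 0.0062). Its values in aged rats were 7.65 in naive tissue, 8.41 at 3 d and 8.95 at 14 d, and in young rats 7.76, 8.44 and 8.42. The aged 14 d array was the highest, as it was for Cyba, Ncf1 and Rac2, whereas Cybb and Ncf4 were highest in young rats at 3 d. Rac1, the widely expressed relative of Rac2, changed by 0.25 ± 0.12 at 3 d and 0.18 ± 0.12 at 14 d and did not pass (limma, adjusted p = 0.169 and 0.297). Nox4, the catalytic subunit of another oxidase, stayed between 4.30 and 4.63 on all arrays, below the lower quartile of each. Nox1, Nox3, Duox1 and Duox2, which encode the other catalytic subunits, and Noxo1 and Noxa1, the organiser and activator of Nox1, were also below the 40th percentile throughout. Duoxa1, a maturation factor of a dual oxidase, changed by 0.27 ± 0.14 at 3 d and -0.03 ± 0.14 at 14 d and did not pass.

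Genes that act upstream of the assembly rose for the most part. Of 19 tested, 13 rose and 1 fell at 3 d, with a median of 1.59, and 14 rose and 1 fell at 14 d, with a median of 1.51. Btk and Syk are counted among the rises but lay below the 40th percentile on both naive arrays. They were tested only through stroke arrays, so their rises are no support. The integrin subunits Itgam and Itgb2, which form complement receptor 3, rose by 2.51 ± 0.14 and 2.44 ± 0.15 at 3 d and by 2.76 ± 0.14 and 2.91 ± 0.15 at 14 d. The adaptors Fcer1g and Tyrobp, which pass receptor signals to the kinase Syk, rose by 2.42 ± 0.18 and 2.20 ± 0.18 at 3 d. Vav1, an exchange factor that loads Rac with GTP, rose by 2.09 ± 0.24 at 3 d and 2.08 ± 0.24 at 14 d. Pak1, a kinase downstream of Rac that neurons also express, was the gene that fell, by 0.46 at 3 d and 0.56 at 14 d. The protein kinase C genes Prkcb and Prkcd did not pass at either time, at -0.33 and -0.35 at 3 d and at -0.35 and 0.19 at 14 d. Prkcd is also among the thalamic markers, which were higher on the aged naive array. Its values in aged rats were 9.675 in naive tissue, 8.83 at 3 d and 9.80 at 14 d, and in young rats 8.78, 8.93 and 9.04.

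Of 12 tested transcription factors of myeloid cells 10 rose at 3 d and 10 at 14 d, with medians of 0.99 and 1.40. Spi1, which encodes PU.1, had 7.33 in naive tissue, 8.97 at 3 d and 9.50 at 14 d in aged rats, and 7.03, 9.20 and 8.82 in young rats. It rose by 1.91 ± 0.20 at 3 d and by 1.99 ± 0.20 at 14 d (limma, adjusted p = 0.000713 and 0.000619). Irf8, an interferon regulatory factor that pairs with PU.1, rose by 2.11 ± 0.17 at 3 d and 2.57 ± 0.17 at 14 d. The letters of both factors' composite motif stand in capitals near the end of the Cybb sequence above, and binding was not measured.

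Genes that remove superoxide and peroxide changed less. Of 18 tested 6 rose at 3 d, and 4 rose and 1 fell at 14 d, with medians of 0.12 and 0.05. Gpx1, a glutathione peroxidase, rose by 1.18 ± 0.13 at 3 d and 0.91 ± 0.13 at 14 d. Txnip, an inhibitor of thioredoxin and so no remover itself, rose by 0.73 and 1.10. Gpx7 and Gpx8, peroxidases of the endoplasmic reticulum, rose by 0.76 and 0.57 at 3 d and by 0.70 and 0.95 at 14 d. Sod2, the mitochondrial superoxide dismutase, fell by 0.59 at 14 d (limma, adjusted p = 0.0238) and at 3 d changed by -0.41 without passing.

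Of 15 tested NRF2 target genes 3 rose at 3 d and 4 at 14 d, with medians of 0.20 and 0.10. Hmox1, the inducible heme oxygenase, rose by 2.41 ± 0.13 at 3 d and 1.72 ± 0.13 at 14 d and fell by 0.70 between them (limma, adjusted p = 0.0369). It lay below the 40th percentile on both naive arrays, at 6.37 (aged) and 6.12 (young). It was thus tested only through stroke arrays, and its rise is no support. Among 11 tested genes of other oxidant enzymes 2 rose at 3 d and 4 at 14 d, with medians of 0.29 and 0.03. Of those at 14 d, Aox1 reached the 40th percentile on the 14 d arrays alone, so its rise is no support. The counts at 3 d in both lists are near the share of all genes that rose then (14.4%), and at 14 d that share was 13.6%. Xdh, whose product xanthine dehydrogenase can be turned into a superoxide-making oxidase, rose by 1.53 ± 0.14 at 3 d and 0.59 ± 0.14 at 14 d. It was lower at 14 d than at 3 d by -0.94 ± 0.14 (limma, adjusted p = 0.0136). Alox5ap, the partner protein of an enzyme of leukotriene synthesis, rose by 1.45 and 1.37.

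The members' patterns were also compared among themselves after each was centred on its own mean over the 6 arrays. Cyba and Ncf1 were the closest pair, with a root mean square difference of 0.22 on the log2 scale and r = 0.992. Cybb and Ncf4 were the farthest apart, at 1.01, with r = 0.974. The Pearson correlations of all pairs lay between 0.954 and 0.992, are mainly those of naive against stroke arrays, and rest on 6 arrays that all genes share. By the same distance, the genes most like the mean of the 5 members were Vav1 (0.07), Fcgr1a (0.08), Sla (0.10), Cmtm7 (0.10) and Casp1 (0.10). They were followed by Itgal, Tbxas1, Spi1, Gna15 and Ucp2, at 0.10 to 0.14. Nearest to single members were Syk, Soat1 and Rbm47 for Cyba, Klhl6, Gna15 and Inpp5d for Ncf1, and Slc66a3, Cdk6 and Fgr for Ncf4. For Rac2 they were Otulinl, Lcp2 and Clec4a1, and for Cybb Glipr1, Apobec1 and C3ar1. The last 3 were farther from Cybb (0.21 to 0.26) than the nearest genes were from the other members (0.05 to 0.19).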

How the data were processed

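RNA levels were measured on 6 single-channel Affymetrix rat arrays, 1 per group. Per the labels' protocols, TRIzol-extracted RNA was cleared of DNA, amplified from 200 ng and labelled with biotin. The authors deposited a single value for each probe set on each array, read here as log2. They worked in R 2.14.0 with affy, per the submitters' processing notes. How background, summarisation and normalization were done, and the build, is not given in the sources used here. Equal array scales remove any overall change in RNA content, and large folds are compressed. As no batch or scan date is known, batch and group cannot be told apart.

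Of 28826 probe sets 15209 had 1 symbol, 306 several and 13311 were unnamed here. Of the 15209, 15178 matched RefSeq's GRCr8 gene table, and 0 symbols changed. Genes were tested if a probe set reached the 40th percentile of its array on at least 1 array. Limma 3.58.1 in R 4.3.3 fitted time and age additively (2 residual degrees of freedom, prior 5.56), with Benjamini-Hochberg adjustment over 10947 genes, and was tested on simulated data. Young and aged arrays serve as repeats, so an age difference of the response enters the error.

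Members, lists and tests were chosen with earlier results of these data known. Members were named in every comparison. Of each list up to 4 genes past the threshold with the largest change were named, and Rac1, Nox4 and Hvcn1 whatever their value. A listed gene is not reported here. Genes beyond that were chosen after their values were seen. Alternative settings were no filter, quantile normalization, centred medians, the 60th percentile, trended and robust variances, the other term left out, the mean of probe sets and leaving out each array. Upstream sequences are RefSeq's, build GRCr8.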

Additional observations from a re-analysis of the deposited data

Results flagged for a closer look

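Rac2 stood out because its age difference at 14 d departed from that at the other stages, by 1.31 ± 0.22 with limma's adjusted p = 0.0285. The test has 1 residual degree of freedom, and the adjusted p ran from 0.00816 to 0.137 over 6 alternatives.

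For 4 members the 2 ages pointed opposite ways between 3 d and 14 d, higher at 14 d in aged rats and lower in young rats, with 1 array at each point. The aged change exceeded the young change by 1.17 for Rac2, 0.99 for Cybb, 0.75 for Cyba and 0.73 for Ncf1 on the log2 scale. These differences were not tested, and 29.5% of all genes showed the same combination of signs.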

How the results depend on the processing

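All 5 members were called at 3 d under all 13 alternatives. At 14 d 5 were called under 11 and 4 without either naive array, where Ncf4 was lost. Between 14 d and 3 d leaving out an array gave 0 to 1 members (Rac2 at -0.86 without the aged 14 d array, and at 0.45 and not called without the young one), and between the ages 0 under all 13. For the age difference at 14 d beyond the other times, 0 members were called with quantile normalization, centred medians or no filter, and 1 with the other 3. At 3 d it was 0 throughout. No called member changed direction. Leaving out each array, the counts of all genes called were 746 to 3726 for 3 d minus naive, 752 to 3470 for 14 d minus naive, 221 to 573 for 14 d minus 3 d and 0 to 2 for aged minus young. For the last, trended and robust variances gave 1. For the age difference at 14 d, 43 genes were called, but 0 with quantile normalization, 13 with centred medians and 16 with no filter. At 3 d there was 1, but 0 with quantile normalization, centred medians or the 60th percentile, 4 with no filter, 8 with trended and robust variances and 2 with the mean of probe sets. The cause was not tested. The fits with an age term at 1 stage could not lose an array. No paired analysis was possible because the labels carry no replicate numbers and each group is 1 array, though age is a term of the fit. Low signal limits Ncf4, which was near the filter in naive tissue.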
